A study of Mus musculus with 30 samples.

Results

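Transcripts of 9 enzymes of the tricarboxylic acid (TCA) cycle were followed in single muscle fibres in which the mitochondrial calcium uniporter had been raised or silenced. The genes are Cs, Idh2, Idh3b, Idh3g, Suclg1, Suclg2, Sucla2, Fh1 and Mdh2, chosen by name as enzymes of the cycle and not by a threshold on their values, 9 of the 23342 genes tested. Every probe that is not a control and carries one of these names was taken, which gave 10 probes, 1 for each gene and a second for Fh1. All 10 were well above background on all 30 arrays and none was saturated, so no member was lost to the filter on dim probes.

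Single fibres were taken from a fast muscle of the lower hindlimb, the extensor digitorum longus, of male CD1 mice, whose age at injection of adeno-associated virus (AAV) was 8 weeks. MCU is the pore of the uniporter that lets calcium into the mitochondrial matrix. At day 7 after injection there were 4 wild type fibres that had received no virus, 3 fibres with AAV carrying MCU, 4 control vector fibres and 3 fibres with AAV carrying a hairpin against MCU; at day 14 each of the 4 groups held 4 fibres. The titles name the control vector AAVshLuc, while the descriptions speak of virus lacking a cloned insert, and the labels do not settle which applies. Injected fibres were picked for the green marker ZsGreen and then by quantitative PCR for the intended change of MCU. Wild type fibres went through neither selection. No label ties fibres to animals, so the p-values below measure the spread between fibres, and fibres of a group may share an animal.

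The TCA cycle burns acetyl units in the mitochondrial matrix and hands the electrons to the respiratory chain as NADH and succinate. Citrate synthase opens the cycle; isocitrate, 2-oxoglutarate, succinyl-CoA, fumarate and malate are then converted in turn until oxaloacetate is formed again. Calcium in the matrix is known to activate the NAD-dependent isocitrate dehydrogenase and the oxoglutarate dehydrogenase as proteins. In mouse muscle, fibres rich in mitochondria carry more of these enzymes than the most glycolytic fast fibres.

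The 75th percentile of an array's signal ran from 83.2 to 138.4 units, with 49.4% to 59.5% of probes well above background. The 3 silenced arrays of day 7 were dimmer than all their controls, at 103.8, 83.2 and 87.7 units against 108.2 to 128.0. Every level is log2 of the spot's signal relative to its array's 75th percentile, and every difference is a log2 difference. Mcu itself, the check on the labels, averaged 2.46 in wild type and 6.36 in MCU vector fibres at day 14, a rise of 3.90 ± 0.38 (SE, n = 4 and 4, limma adjusted p = 4.0e-06). At day 7 the rise was only 0.60 ± 0.41 and did not pass (adjusted p = 0.999), although the 3 MCU vector fibres lay above all 4 wild type fibres. In silenced fibres Mcu fell by 2.08 ± 0.41 at day 7 (adjusted p = 0.0016) and by 3.07 ± 0.38 at day 14 (adjusted p = 1.7e-05) against the control vector. The fibres had been selected for these changes.

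The fast troponins Tnnt3 and Tnni2 were at least 8.55 in every fibre. Of the slow markers, Myh7 was below the 75th percentile in every fibre, while Tnnt1 reached 4.92 and Tnni1 3.41 around medians of -0.65 and -0.74. Pdgfra of fibroblasts and Myf5 of satellite cells were above background on 0 arrays, Pax7 on 1, endothelial Cdh5 on 2 and fibroblast Col3a1 on 26 of 30. Macrophage Csf1r (median 4.55), endothelial Kdr (median 3.58) and erythroid Hba-a1, from -1.59 to 6.57, were above it on all 30. The other erythroid markers, Hbb-b1 and Alas2, were above it on only 3 and 5 arrays, and endothelial Pecam1 and Tek on 9 and 4.

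Of the 5 macrophage and leukocyte markers, 2 passed on silencing at day 7, Cd68 at -2.76 ± 0.71 and Adgre1 at -1.39 ± 0.46 (adjusted p = 0.0113 and 0.0471). Adgre1 was above background on 8 of the 30 arrays. The signals of the 5 summed to 4.66 to 4.88 in silenced and 4.68 to 4.84 in control vector fibres. Csf1r (median 4.55) makes up most of that sum, so it could not show a fall of Cd68 (median -0.86) or Adgre1. Over both days Cd68 was 2.11 ± 0.48 lower on silencing (adjusted p = 0.0052) and 2.23 ± 0.46 higher in control vector than in wild type fibres (adjusted p = 0.00087). Slow Myl3 was 1.02 ± 0.20 lower in control vector fibres (adjusted p = 0.00039). The part of these markers in the members' results was not tested.

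Silenced fibre 3 of day 14 stood apart. It had 0.37 for Myh4, the IIB myosin heavy chain, where the other 29 lay between 5.92 and 7.97, -2.29 for Actn3, an actinin of fast glycolytic fibres, and 6.49 for Myh2, the IIA myosin. Silenced fibre 1 of day 14 was the only other one with Myh2 above background, at -0.90. The Idh2 silencing difference of day 14, the members' correlations with Actn3 and that of Idh2 with Myh4 are given with and without fibre 3. The other correlations include it.

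Each gene was read by a probe of 60 bases, and for Idh3b, Suclg1, Sucla2 and one of the Fh1 probes the sequence has a single reading frame without a stop codon. The probes of Idh3b, Suclg1 and Fh1 are shown because each of them separated the MCU vector from the wild type fibres of day 14, on the strand of the transcript as the files give it, with that frame's codons in capitals.
Idh3b probe A_51_P130110: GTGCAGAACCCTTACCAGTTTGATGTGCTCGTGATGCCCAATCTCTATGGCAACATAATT
Suclg1 probe A_51_P491227: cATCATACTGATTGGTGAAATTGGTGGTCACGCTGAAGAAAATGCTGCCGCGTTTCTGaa
Fh1 probe A_51_P359333: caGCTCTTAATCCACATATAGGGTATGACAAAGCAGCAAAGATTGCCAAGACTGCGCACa
On mouse build mm9, per the files, the Idh3b probe lies at chr2:130106776-130106835 on the minus strand and the Suclg1 probe at chr6:73221044-73221103 on the plus strand. The Fh1 probe spans chr1:177531659-177534089 on the minus strand, far more than its length, so it crosses at least 1 splice junction. The second Fh1 probe, A_55_P2074718, lies nearer the end of the transcript at chr1:177531530-177531589.

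No member passed the threshold when MCU was raised, and none when it was silenced. With the MCU vector all 9 were lower than in wild type over both days, with a median of -0.19 against -0.02 for all genes, and Idh3g came closest to the threshold. With silencing the signs were turned at day 7, where 8 of 9 were higher (median 0.31), as were 57.2% of all genes (median 0.08). At day 14 the median was -0.04, against -0.01 for all genes. Leaving out 1 fibre at a time gave -0.30 (without wild type fibre 3 of day 7) to -0.13 for the MCU vector median and 0.25 to 0.45 for silencing at day 7. For silencing at day 14 it gave -0.13 to 0.06, with the sign turned without control vector fibre 3 (0.02) or silenced fibre 4 (0.06). The 9 transcripts also went up and down together between fibres of the same group.

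**Figure D1:**
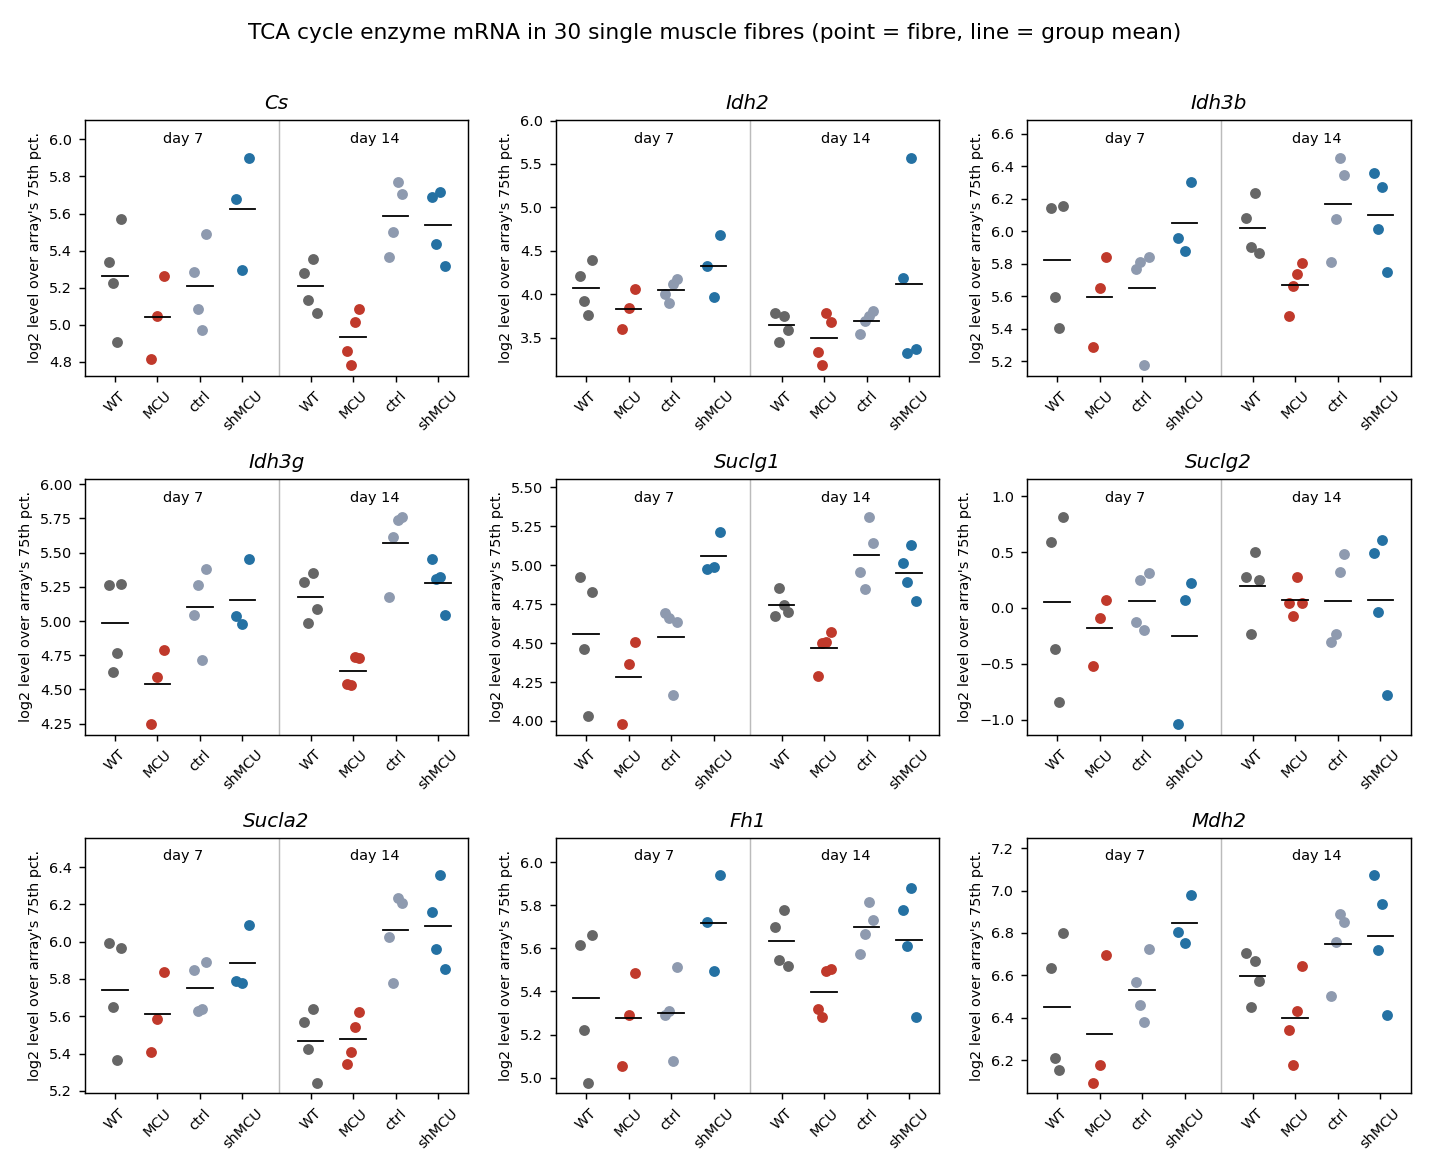
Level of each of the 9 transcripts, as log2 signal over its array's 75th percentile, in wild type (WT), MCU vector (MCU), control vector (ctrl) and silenced (shMCU) fibres at day 7 and day 14. Each point is a fibre and each line a group mean; for Fh1 the brighter of its 2 probes is drawn. At day 14 the MCU vector fibres lay below all wild type fibres for Idh3b, Idh3g, Suclg1 and Fh1.

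Cs encodes citrate synthase, which joins acetyl-CoA to oxaloacetate and is widely used as a marker of mitochondrial content. At day 7 it stood at 5.34, 5.23, 4.91 and 5.57 in the wild type fibres and at 4.82, 5.05 and 5.26 in the MCU vector fibres. At day 14 wild type fibres had 5.28, 5.13, 5.35 and 5.07, and MCU vector fibres 4.86, 4.78, 5.01 and 5.09. The groups overlapped on both days. Over both days Cs was 0.25 lower with the MCU vector (SE 0.11, 95% interval -0.48 to -0.01, unadjusted p = 0.042, adjusted p = 0.358), which did not pass. Control vector fibres of day 7 had 5.28, 5.09, 4.97 and 5.49, and silenced fibres 5.68, 5.30 and 5.90. This day 7 difference, 0.42 ± 0.17 higher on silencing, did not pass either (adjusted p = 0.0970), but did without silenced fibre 2 (0.58, adjusted p = 0.0441). At day 14 the control vector fibres, from 5.36 to 5.77, and the silenced fibres, from 5.32 to 5.72, covered nearly the same range.

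Idh2 encodes the NADP-dependent isocitrate dehydrogenase of the matrix, which supplies NADPH beside the main path of the cycle. Its levels were 4.21, 3.92, 3.76 and 4.39 in wild type fibres of day 7 and 3.60, 3.84 and 4.07 with the MCU vector. At day 14 they were 3.78, 3.45, 3.75 and 3.59 in wild type and 3.33, 3.18, 3.79 and 3.68 with the MCU vector. Both pairs of groups overlapped, and the difference over both days was -0.19 ± 0.22 (adjusted p = 0.765). Silenced fibres of day 7 had 4.33, 3.97 and 4.68 against 4.00, 3.90, 4.12 and 4.18 in the control vector fibres. At day 14 the silenced fibres stood at 4.19, 3.32, 5.57 and 3.37, and the control vector fibres at 3.54, 3.69, 3.75 and 3.80. The value of 5.57, in the fibre with high Myh2, was the highest of all 30, and 2 of the other 3 silenced fibres lay below every control. The day 14 difference was 0.42 ± 0.30 (adjusted p = 0.482), and without that fibre it was -0.07 ± 0.20 (adjusted p = 0.917).

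Idh3b and Idh3g encode the beta and gamma subunits of the NAD-dependent isocitrate dehydrogenase, a rate-setting enzyme of the cycle that matrix calcium activates; Idh3a encodes the catalytic alpha subunit. Idh3g stood at 5.26, 4.63, 4.76 and 5.27 in wild type fibres of day 7 and at 4.25, 4.60 and 4.79 in MCU vector fibres. At day 14 it stood at 5.29, 4.99, 5.35 and 5.09 in wild type and at 4.54, 4.53, 4.73 and 4.73 with the MCU vector. The day 7 groups overlapped, while at day 14 every MCU vector fibre was below every wild type fibre. The differences were -0.44 ± 0.19 at day 7 (adjusted p = 0.817) and -0.54 ± 0.17 at day 14 (adjusted p = 0.207). Over both days Idh3g was 0.49 lower, to 0.711 of wild type (SE 0.13, 95% interval -0.76 to -0.23), with an adjusted p of 0.0594 that just missed the threshold. Across the alternatives for processing and for fibres left out, that adjusted p lay between 0.0062 and 0.294. The call was made when wild type fibre 2 of day 7 (-0.55, adjusted p = 0.0286) or MCU vector fibre 3 of day 7 (-0.55, adjusted p = 0.0453) was left out.

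Silencing did not turn Idh3g the other way. Silenced fibres had 5.04, 4.98 and 5.45 at day 7 and 5.45, 5.31, 5.32 and 5.04 at day 14, and control vector fibres had 5.04, 5.26, 4.72 and 5.38, then 5.18, 5.61, 5.74 and 5.76. The groups overlapped on both days, with differences of 0.06 ± 0.19 and -0.29 ± 0.17 (adjusted p = 0.877 and 0.385). Idh3b showed the pattern of its partner with the MCU vector at day 14, when its levels of 5.48, 5.66, 5.74 and 5.81 lay below the 6.08, 5.90, 6.24 and 5.87 of wild type fibres. At day 7 the 3 MCU vector fibres, at 5.29, 5.65 and 5.84, lay within the wild type range of 5.40 to 6.16 or below it. Over both days Idh3b was 0.29 lower (SE 0.14, adjusted p = 0.383), which did not pass. With silencing at day 7 Idh3b stood at 5.96, 5.88 and 6.31, above the 5.77, 5.81, 5.17 and 5.84 of the controls, a difference of 0.40 ± 0.21 (adjusted p = 0.205). Without the control fibre at 5.17, fibre 3, it was 0.24 (adjusted p = 0.483).

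The succinyl-CoA synthetases release CoA from succinyl-CoA and make a nucleoside triphosphate directly. Suclg1 encodes the alpha subunit common to both forms, Sucla2 the beta subunit of the form that makes ATP and Suclg2 that of the form that makes GTP. Suclg1 stood at 4.92, 4.46, 4.03 and 4.82 in wild type fibres of day 7 against 3.98, 4.37 and 4.51 with the MCU vector. At day 14 it stood at 4.68, 4.85, 4.74 and 4.70 against 4.29, 4.50, 4.51 and 4.57, with no overlap between the groups. Over both days it was 0.28 lower with the MCU vector (SE 0.12, unadjusted p = 0.031, adjusted p = 0.316).

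On silencing, Suclg1 had the smallest p of the 9. Control vector fibres of day 7 had 4.69, 4.66, 4.17 and 4.64, and the silenced fibres, at 4.97, 4.99 and 5.21, all lay above them. The difference of 0.52 ± 0.18, or 1.43-fold (95% interval 0.16 to 0.88), missed the threshold at an adjusted p of 0.0513. It was 0.40 without control vector fibre 3, at 4.17 (adjusted p = 0.155). The silenced arrays of day 7 were the dimmer ones of their slide, whose part was not tested further than by scaling. With median scaling the difference was 0.39 (adjusted p = 0.184). With the percentile taken over probes detected on all arrays it was 0.58 and passed (adjusted p = 0.0298). At day 14 the order was no longer seen, since the controls had 4.96, 4.85, 5.31 and 5.14 and the silenced fibres 5.01, 4.90, 5.13 and 4.77 (difference -0.11 ± 0.16, adjusted p = 0.756). The change of the silencing effect between the days was -0.63 ± 0.24 (adjusted p = 0.146) and did not pass.

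Sucla2 differed little with the MCU vector. Wild type fibres had 5.99, 5.65, 5.36 and 5.97 at day 7 and 5.57, 5.43, 5.64 and 5.24 at day 14, and MCU vector fibres had 5.41, 5.59 and 5.84, then 5.34, 5.41, 5.54 and 5.62. The groups overlapped on both days, and the difference over both was -0.06 ± 0.11 (95% interval -0.29 to 0.17, adjusted p = 0.862). Silenced fibres, from 5.78 to 6.09 at day 7 and from 5.85 to 6.36 at day 14, overlapped the control vector fibres as well, with a difference of 0.08 ± 0.11 over both days (adjusted p = 0.682).

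Suclg2 was the dimmest and most variable of the 9, near the 75th percentile of its array. Its 30 levels ran from -1.04 to 0.82, and both the lowest and the highest wild type value fell at day 7, at -0.84 and 0.82. Its differences over both days were -0.18 ± 0.24 with the MCU vector and -0.15 ± 0.24 on silencing (adjusted p = 0.805 and 0.721). With a standard deviation between fibres of 0.486, against 0.202 to 0.443 for the brighter probes of the other 8, its intervals of -0.68 to 0.32 and -0.65 to 0.35 were too wide to show changes of the size seen for Idh3g.

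Fh1 encodes fumarate hydratase, which adds water to fumarate to give malate. On probe A_51_P359333 wild type fibres of day 14 had 5.70, 5.55, 5.78 and 5.52, and MCU vector fibres had 5.32, 5.28, 5.50 and 5.50, so that the groups did not overlap. At day 7 the MCU vector fibres, at 5.06, 5.29 and 5.49, lay within the wild type range of 4.97 to 5.66. The difference over both days was -0.16 ± 0.11 (adjusted p = 0.557). Silenced fibres of day 7 had 5.72, 5.50 and 5.94 against 5.29, 5.31, 5.08 and 5.51 in the controls, a difference of 0.42 ± 0.16 with a small overlap (adjusted p = 0.0872). The second probe, A_55_P2074718, followed the first closely from fibre to fibre within groups (r = 0.938, 30 fibres). On it the MCU vector fibres of day 14 reached 4.62 and the wild type fibres began at 4.59, so the groups overlapped. The 2 probes also disagreed on silencing at day 14, with -0.06 ± 0.15 on the first and 0.38 ± 0.18 on the second.

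Mdh2 encodes the mitochondrial malate dehydrogenase, which closes the cycle and also serves the malate-aspartate shuttle. Over both days it was 0.16 lower with the MCU vector (SE 0.12, adjusted p = 0.591) and 0.17 higher on silencing (SE 0.12, adjusted p = 0.344). At day 7 the silenced fibres, at 6.80, 6.75 and 6.98, were above the controls at 6.57, 6.46, 6.38 and 6.72. With the MCU vector the day 7 fibres, at 6.09, 6.18 and 6.70, covered nearly the same range as the wild type fibres, from 6.15 to 6.80.

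Set against the background of all genes, these counts were as follows. With the MCU vector 0 of 9 passed at day 7, at day 14 and over both days, where 0.574%, 0.428% and 1.13% of all genes passed. Without adjustment 3 of 9 (Cs, Idh3g and Suclg1) had a p below 0.05 over both days, where 13.1% of all genes did, and 54.5% of all genes were lower. The groups did not overlap for 0 of 9 at day 7, against 8.10% of all genes. At day 14 the MCU vector fibres lay below all wild type fibres for 4 of 9 (Idh3b, Idh3g, Suclg1 and, on its brighter probe only, Fh1), against 4.36% of all genes. The members varied together between the same fibres (median r of 0.794 over pairs), so these 4 are not independent results. On silencing many more genes passed. Of all genes 13.4% passed at day 7, 3.46% at day 14 and 14.1% over both days, but 0 of 9 members in each. These shares depend on the fit. With only the groups compared, 851 of 23342 genes passed on silencing at day 7 and 130 at day 14, against 123 and 60 with the MCU vector. At day 7 the silenced fibres lay above all controls for 3 of 9 (Idh3b, Suclg1 and Mdh2), against 13.6% of all genes, and at day 14 the groups overlapped for all 9, against 9.10% of genes without overlap. Without adjustment 3 of 9 (Cs, Suclg1 and Fh1) had a p below 0.05 at day 7, close to the 28.9% of all genes, and 0 of 9 over both days, where 30.0% of all genes did.

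**Figure D2:**
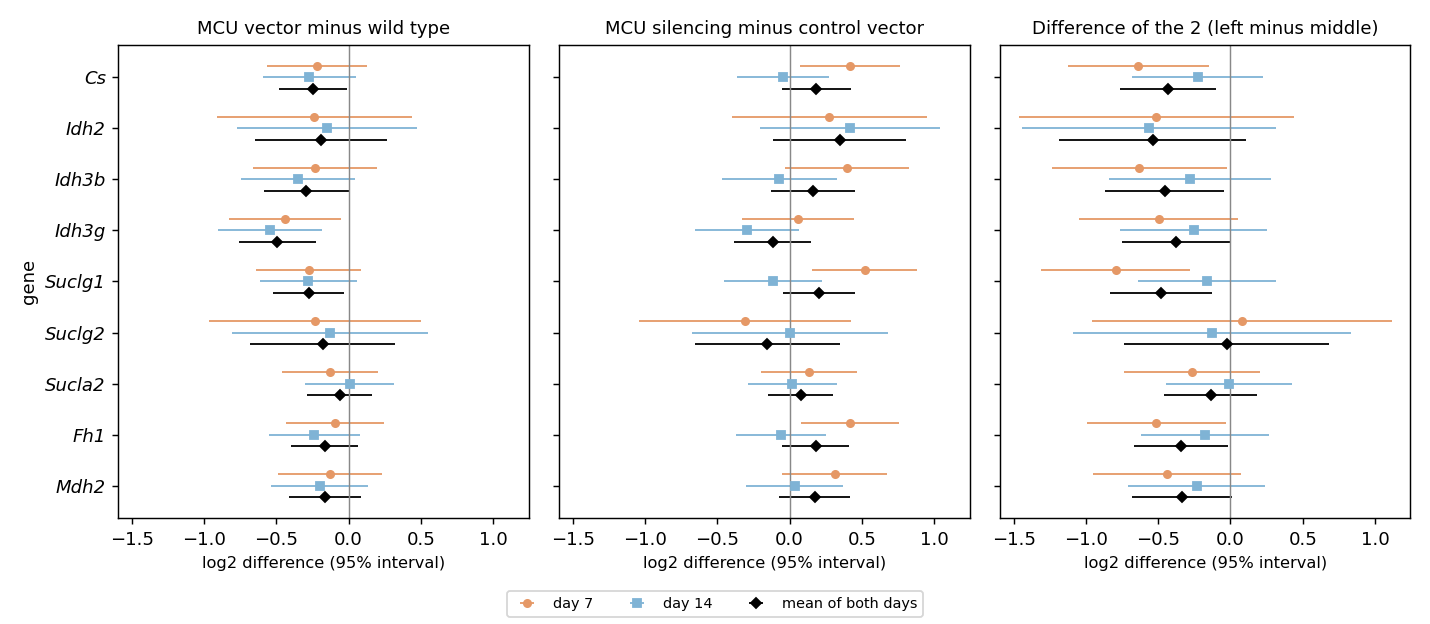
Log2 difference with its 95% interval for each transcript, for the MCU vector against wild type (left), silencing against the control vector (middle) and the left difference minus the middle one (right), at day 7, at day 14 and as the mean of both days. All 9 means on the left lie below 0, 7 of 9 in the middle lie above 0, and no difference drawn in any panel passed after adjustment.

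The MCU vector and silencing were then compared directly, as the effect of the one minus the effect of the other. Each effect has its own controls and was measured within its own slides, but the controls differ in kind. The wild type fibres had received no virus and were not selected, while the control vector fibres were injected. Virus and selection therefore cannot be told apart from MCU in the MCU vector effect or in this comparison. All 9 members were lower, with a median of -0.37 against -0.07 for all genes, of which 57.3% were lower. None passed (0 of 9, against 11.2% of all genes). Without adjustment 5 of 9 had a p below 0.05, where 27.6% of all genes did. Suclg1 differed by -0.48 ± 0.17 (adjusted p = 0.0682), Cs by -0.43 ± 0.16 (adjusted p = 0.0829) and Idh3b by -0.46 ± 0.20 (adjusted p = 0.140). Leaving out single fibres of day 7 moved both past the threshold. Suclg1 passed without wild type fibre 3 (-0.57, adjusted p = 0.0199) or MCU vector fibre 3 (-0.54, adjusted p = 0.0462), and Cs passed without wild type fibre 3 (-0.49, adjusted p = 0.0478) or silenced fibre 2 (-0.51, adjusted p = 0.0393). The second Fh1 probe did pass, at -0.61 ± 0.19 (adjusted p = 0.0375 over 33164 probes), where the first had -0.34 ± 0.16 (adjusted p = 0.164). At day 7 and day 14 taken singly 0 of 9 passed, against 6.28% and 2.14% of all genes. Neither effect changed between the days beyond the threshold for any member (0 of 9 each, against 0.201% of all genes for the MCU vector and 4.13% for silencing).

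One member differed between the controls. Sucla2 stood at 5.57, 5.43, 5.64 and 5.24 in wild type fibres of day 14 and at 6.03, 5.78, 6.24 and 6.21 in control vector fibres, every one of them higher. It was 0.59 ± 0.15 higher, or 1.51-fold (adjusted p = 0.0085), the only one of 9 that passed at day 14, where 16.0% of all genes passed. Cs did not overlap at day 14 either, at 5.36 to 5.77 against 5.07 to 5.35, but did not pass (0.38 ± 0.16, adjusted p = 0.102); 2 of 9 members were thus higher without overlap, against 7.81% of all genes. At day 7 Sucla2 had 5.85, 5.63, 5.64 and 5.89 with the control vector, within the wild type range, and 0 of 9 passed, against 17.4% of all genes. Over both days Sucla2 passed at 0.30 ± 0.11 (adjusted p = 0.0352; 1 of 9 against 27.8% of all genes). That call over both days was lost under 6 alternatives for processing and when 1 of 8 fibres was left out (wild type fibres 2 and 3 of day 7 and 2 and 4 of day 14, control vector fibres 1 and 4 of day 7 and 3 and 4 of day 14), with values from 0.24. Wild type and control vector fibres never shared a slide, so slide and vector cannot be told apart.

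Another 9 genes for core enzymes of the cycle (Idh3a, Ogdh, Ogdhl, Dlst, Dld and the 4 succinate dehydrogenase subunits) had no call in either effect. Over both days 1.13% of all genes passed with the MCU vector and 14.1% on silencing. All 9 of the further core enzymes were lower with the MCU vector over both days (median -0.13), as were 54.5% of all genes (median -0.02). On silencing 8 of the 9 were higher (median 0.07), as were 55.5% of all genes (median 0.04). Sdhb, the iron-sulphur subunit of succinate dehydrogenase, had the smallest p with the MCU vector, at -0.31 ± 0.14 (adjusted p = 0.343), and Sdhc, its membrane anchor, stood at -0.26 ± 0.13 (adjusted p = 0.409). On silencing Sdhd, the other anchor subunit, had 0.34 ± 0.17 (adjusted p = 0.181) and Sdhb 0.22 ± 0.14 (adjusted p = 0.291).

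Of 11 genes for pyruvate entry and anaplerosis, which feed the cycle, 4 rose on silencing at day 7, where 13.4% of all genes passed. Pck2, the mitochondrial phosphoenolpyruvate carboxykinase, rose by 0.92 ± 0.19 (adjusted p = 0.0026). Mpc1 and Mpc2, which together form the mitochondrial pyruvate carrier, rose by 0.69 ± 0.16 and 0.56 ± 0.18 (adjusted p = 0.0057 and 0.0396). Pdhx, the protein that binds E3 in the pyruvate dehydrogenase complex, rose by 0.52 ± 0.16 (adjusted p = 0.0347). Over both days 2 of the 11 passed, against 14.1% of all genes, Pck2 at 0.49 ± 0.13 and Mpc1 at 0.33 ± 0.11 (adjusted p = 0.0138 and 0.0412). Pck2 was also 1.17 ± 0.12 lower in control vector than in wild type fibres (adjusted p = 4.4e-07), the baseline against which its rise was measured. Me2, a mitochondrial malic enzyme, was the other of the 11 that passed between the controls, at -1.30 ± 0.33 (adjusted p = 0.0044), where 27.8% of all genes passed. With the MCU vector 0 of 11 passed, against 1.13%; Glud1, glutamate dehydrogenase, had -0.42 ± 0.13 and Pdhx -0.37 ± 0.11 (adjusted p = 0.118 for both). In the direct comparison of the 2 effects, Mpc1 (-0.61 ± 0.15), Mpc2 (-0.66 ± 0.17), Pdhx (-0.61 ± 0.16) and Pck2 (-0.59 ± 0.18) passed (adjusted p from 0.0123 to 0.0378), 4 of 11 against 11.2% of all genes.

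Among 12 cytosolic counterparts and carriers of the malate-aspartate shuttle and related exchange, 1 passed on silencing, where 13.4% of all genes did at day 7 and 14.1% over both days. Slc25a1, which exports citrate from the matrix, fell by 1.10 ± 0.28 at day 7 and by 0.71 ± 0.19 over both days (adjusted p = 0.0107 and 0.0146). With the MCU vector 0 of 12 passed, and Slc25a11, the carrier of oxoglutarate and malate, had -0.41 ± 0.17 (adjusted p = 0.296) and Me1, the cytosolic malic enzyme, 0.38 ± 0.26 (adjusted p = 0.568). Between the controls 2 of 12 passed over both days, against 27.8% of all genes, and both were lower in control vector fibres. These were Aco1, the cytosolic aconitase, at -0.54 ± 0.11, and Slc25a13, an aspartate-glutamate carrier, at -0.82 ± 0.31 (adjusted p = 0.00087 and 0.0484).

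The 9 transcripts varied together between fibres of the same group. After each group's mean was taken away, all 36 pairs of members correlated above 0 over the 30 fibres, with a median r of 0.794 and a range from 0.428 to 0.927. The closest pair was Idh3b with Idh3g, 2 subunits of one enzyme (r = 0.927), followed by Cs with Fh1 (r = 0.924) and Idh3b with Fh1 (r = 0.915). Fh1 followed the mean of the other 8 most closely (r = 0.966) and Idh2 least (r = 0.623). All 5 pairs with the lowest r held Idh2, from Idh2 with Idh3g (r = 0.428) to Idh2 with Mdh2 (r = 0.607). Silenced fibre 3 of day 14, where Idh2 deviated by 1.46, enters these r values, which were not taken without it. By rank (Spearman rho) Idh2 with Idh3g reached 0.733 and Idh2 with Mdh2 0.813. Idh2 with Suclg1 had the lowest rho of the 36 pairs (0.608), followed by Cs with Suclg2 (0.668). These are descriptions over fibres that share slides and scaling, since each level is relative to its own array.

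**Figure D3:**
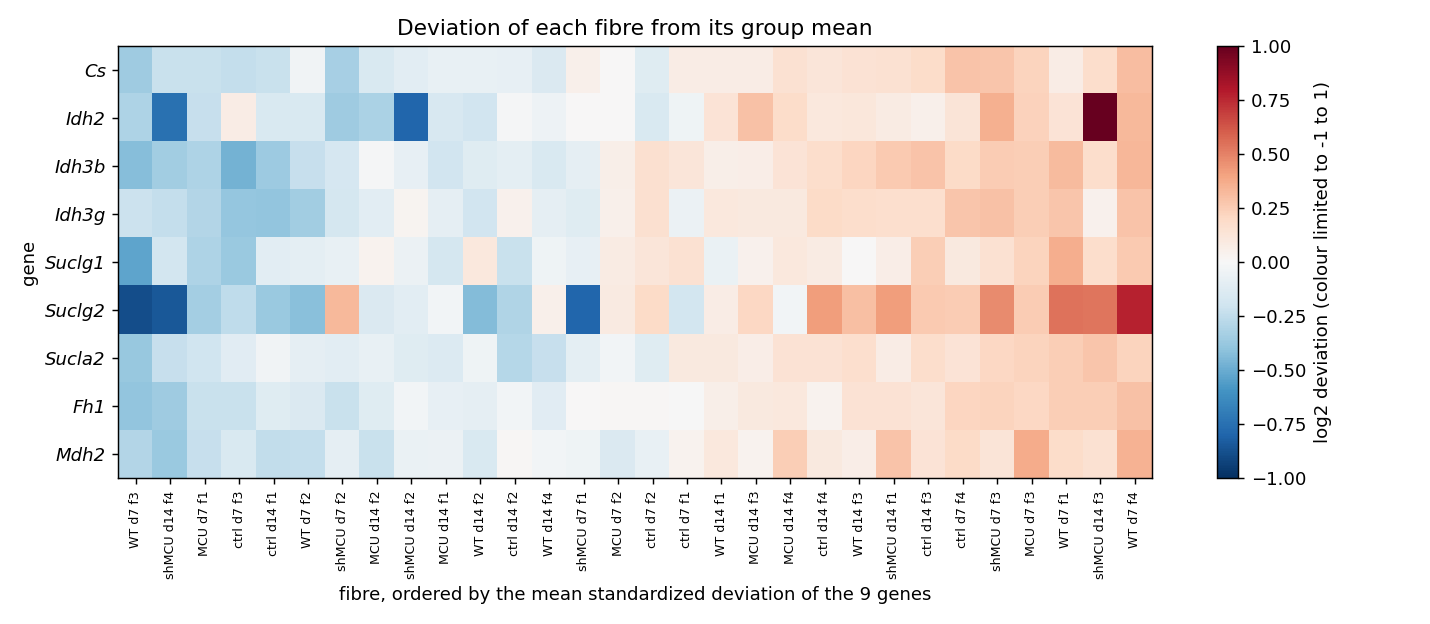
Deviation of each transcript from its group mean, in log2 units, in the 30 fibres (columns), ordered by the mean standardized deviation of the 9 genes; f gives the fibre number and d the day. Columns are mostly of one colour, from wild type fibre 3 of day 7 (mean -1.56) on the left to wild type fibre 4 of day 7 (mean 1.27) on the right, and Idh2 departs from its column in silenced fibre 3 of day 14.

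Since each group's mean was taken away, that order holds no difference between treatments. The lowest fibres were wild type fibre 3 of day 7 (mean standardized deviation -1.56), silenced fibre 4 of day 14 (-1.34) and MCU vector fibre 1 of day 7 (-1.01). The highest were wild type fibre 4 of day 7 (1.27), silenced fibre 3 of day 14 (1.11) and wild type fibre 1 of day 7 (1.00). Of the array measures, the share of probes above background moved with the mean deviation at r = -0.03 and the log2 75th percentile at r = -0.32, and their part in the pattern was not tested. Mcu moved with it at r = -0.12.

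Over all 23298 genes without a missing value, the median r with the mean deviation of the 9 members was 0.01, and 7.06% of genes were above 0.5 and 0.189% above 0.9. The closest named genes were Uqcrc2, a core subunit of respiratory complex III (r = 0.970), Sdhc (r = 0.965) and Ndufa9, a subunit of complex I (r = 0.938); the third and the fourth place went to features without a gene symbol (both r = 0.941). Of the 9 further core enzymes named above the median r was 0.870, from 0.163 for Ogdhl to 0.965 for Sdhc. The 11 genes of pyruvate entry and anaplerosis had a median of 0.841, from -0.648 for Pcx, pyruvate carboxylase, to 0.898 for Mpc2. The 12 cytosolic counterparts and carriers were lower, with a median of 0.394, from -0.576 for Me1 to 0.930 for Mdh1, the cytosolic malate dehydrogenase.

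Some fibre type markers varied with the members. Actn3 deviations ran against those of all 9 members, from r = -0.187 for Idh3g to -0.895 for Idh2, and from -0.324 to -0.757 without silenced fibre 3 of day 14. Myh1, the IIX myosin, moved with the mean deviation at r = 0.47 and Myh4 at r = -0.36. The r of Myh4 includes silenced fibre 3 of day 14. By rank the single members ran from rho = -0.306 (Sucla2) to 0.052 (Mdh2) with Myh4. Myh1 was also higher in silenced fibres of day 14, at 7.91, 4.61, 7.52 and 5.48 against -1.10, 1.53, 4.76 and 4.18 in control vector fibres, a difference of 4.03 ± 1.24 that did not pass (adjusted p = 0.0703). With Myh4 and Myh1 as covariates the median of the members on silencing at day 14 went from -0.04 to -0.32, and 0 of 9 passed. What part fibre type had in the silencing results was tested no further.

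Silenced fibre 3 of day 14 lay 1.95 log2 units above the mean of the other 3 fibres of its group for Idh2, while its excess for the other 8 members lay between 0.05 (Idh3g) and 0.71 (Suclg2). Of the 9 members Idh2 ran most closely against Actn3 (r = -0.895, rho = -0.725), also without that fibre (r = -0.757). With Myh4 its correlation was -0.851 but its rho only -0.222, and -0.460 without the fibre, so that relation rests in large part on it. With Myh1 it was 0.436 (rho = 0.543), below the 0.505 of Mdh2, 0.490 of Cs and 0.477 of Sucla2. Myh2 was not above background in 28 of the 30 fibres, so no correlation with it is given.

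**Figure D4:**
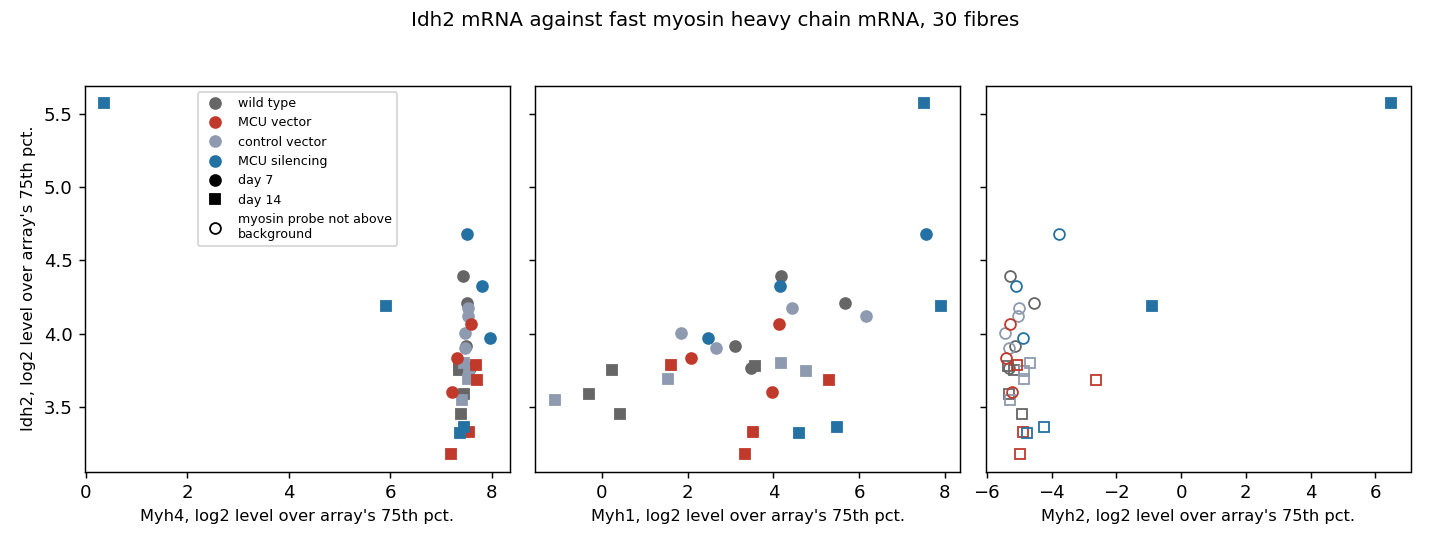
Idh2 level against the level of the fast myosins Myh4 (IIB), Myh1 (IIX) and Myh2 (IIA) in the 30 fibres, all as log2 signal over its array's 75th percentile; circles are day 7, squares day 14, and open symbols mark a myosin probe that was not above background. Silenced fibre 3 of day 14 stands alone with Idh2 at 5.57, Myh4 at 0.37 and Myh2 at 6.49.

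Because Idh3b and Idh3g varied most closely together, the 250 bases before their transcription starts are shown, from RefSeq on build GRCm38.p6, each read 5′ to 3′ on the gene's own strand. All 9 members matched an entry of the promoter table. Capitals mark the matches, on either strand, to any of 4 motifs: the ETS core CCGGAAG, the NRF1 motif GCGCNTGCG, the estrogen-related receptor motif TNAAGGTCA and the cAMP response element TGACGTCA.
Idh3b, chr2:130284452-130284701, minus strand: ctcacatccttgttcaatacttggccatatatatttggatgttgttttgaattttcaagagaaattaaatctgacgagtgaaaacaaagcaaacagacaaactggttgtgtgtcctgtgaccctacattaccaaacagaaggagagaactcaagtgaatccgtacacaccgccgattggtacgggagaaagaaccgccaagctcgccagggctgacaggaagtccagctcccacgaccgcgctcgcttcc
Idh3g, chrX:73786898-73787147, minus strand: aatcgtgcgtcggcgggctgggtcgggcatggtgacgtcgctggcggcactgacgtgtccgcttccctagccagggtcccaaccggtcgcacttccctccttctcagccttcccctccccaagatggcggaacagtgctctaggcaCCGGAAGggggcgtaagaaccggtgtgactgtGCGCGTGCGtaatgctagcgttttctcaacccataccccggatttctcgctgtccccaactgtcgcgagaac
Of this pair only the Idh3g stretch held matches, 1 ETS core and 1 NRF1 motif, and these did not overlap. Among all 9 stretches the ETS core was found in 1 (Idh3g), the NRF1 motif in 2 (Idh3g and Sucla2), the cAMP response element in 1 (Mdh2) and the estrogen-related receptor motif in 0. Of the 32851 promoters in the table, of genes of every kind, 6.91%, 5.19%, 1.55% and 1.14% held them. A match of letters is no evidence of binding, and the lack of one says only that these letters are not in the window.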

How the data were processed

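Per the file headers, the deposited scanner files came from Feature Extraction (Agilent, 10.7.3.1) and held the processed intensity of each spot, background-subtracted and detrended within the array but not scaled between arrays. The deposited series matrix held the authors' processed intensity, with steps not given in the sources used here, and served as an alternative. Per the labels' protocols, the RNA of a fibre was amplified as a whole transcriptome and random primers were used for labelling, so strand was not kept.

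Here each array's 75th percentile was subtracted from its log2 intensity. Spots flagged as outliers in the deposited files were dropped and repeated spots averaged. A probe was kept if at least 3 arrays of some group showed it well above background (33164 of 55681), and the brightest kept probe stood for its gene. Names were updated through RefSeq by accession (26425 probes), symbol (3988) or synonym (826); for 24442 the deposited name was used. Using limma 3.58.1 (R 4.3.3, data.table, version 1.17.8), 8 group means were fitted over the 30 arrays. Tests were 2-sided, p was adjusted after Benjamini-Hochberg across the 23342 genes, and the threshold was an adjusted p of 0.05. Groups did not overlap where the lowest of one exceeded the highest of the other. The fit was tested on simulated data with noise independent between genes and changes larger than any member's difference. That test does not bear on differences of the members' size.

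The members and lists were chosen with earlier results of these data known. All 9 members are named; of the other lists, the genes that passed or, where none did with the MCU vector or silencing over both days, the 2 with the smallest p; and the 5 features that varied most like the members. One gene of these lists is not reported here, and its list's counts and medians leave it out. Each slide carried a treated group and its own control group in separate columns, so column and treatment cannot be told apart. The number of arrays limits the precision.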

Additional observations from a re-analysis of the deposited data

Results flagged for a closer look

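Control vector fibre 3 of day 7 was flagged as far below the rest of its group for 2 members, Idh3b and Suclg1. Without a flag, it was also the lowest of its group for Cs (4.97), Idh3g (4.72), Suclg2 (-0.20), Fh1 (5.08) and Mdh2 (6.38). Idh3b was 5.17 in it, against 5.77 to 5.84 in the other 3 fibres. Suclg1 was 4.17, against 4.64 to 4.69. Without this fibre the silencing difference of day 7 went from 0.40 to 0.24 for Idh3b and from 0.52 to 0.40 for Suclg1. These were 2 of 60 groups of 4 fibres checked for a value far from the others, and chance alone flags about 1 in 20. Both flags fell on the same fibre, and the members varied together, so they are not 2 independent cases.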

How the results depend on the processing

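Over both days the members' medians kept their sign relative to all genes under each alternative for scaling or background. The MCU vector median less the median of all genes was -0.215 to -0.168, that of silencing 0.057 to 0.134, and that of the direct comparison of the 2 effects -0.351 to -0.290. Median scaling and the percentile over detected probes could not change these values, since each shifts all genes of an array alike. For silencing at day 14 the sign turned, from -0.036 to 0.014 with quantile normalization and 0.013 with the series matrix. For control vector against wild type at day 7 it turned from 0.009 to values of -0.111 to -0.076 with these 2 and with normexp. Scaling shifted all genes together, so that the all-gene median of the direct comparison ran from -0.18 to 0.09. The median r between members stayed between 0.764 and 0.804 under the alternatives for processing.

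Counts of members past the threshold changed as follows, and the cause was not tested. With the MCU vector over both days 1 member, Idh3g, passed with normexp background correction, with probes detected on all arrays only, with array weights and with Myh4 and Myh1 as covariates, and 0 to 1 with single fibres left out. On silencing at day 7, 1 member, Suclg1, passed with the percentile taken over probes detected on all arrays or with those probes only, and 0 to 1 with single fibres left out. In the direct comparison at day 7, 1 passed under those 2 settings and with array weights; over both days 2 passed with the percentile over detected probes and 1 with quantile normalization or the series matrix. Leaving out fibres gave 0 to 1 at day 7 and 0 to 2 over both days. Between the controls over both days, 3 passed with median scaling, 0 with the percentile over detected probes, quantile normalization, the series matrix, no filter or only the groups compared, and 0 to 1 with fibres left out. At day 14, 3 passed with median scaling and 2 with array weights.

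Covariates for Myh4 and Myh1 moved the median on silencing at day 14 to -0.32 and its change between days to -0.69. They turned Idh2 on silencing to -0.46 at day 14 and -0.085 over both days, Sucla2 to -0.080, and Suclg2 in the direct comparison to 0.21. Median scaling turned Sucla2 on silencing to -0.046 and, in the direct comparison, Suclg2 to 0.14 and Sucla2 to 0.028. Leaving out fibres gave -0.070 to 0.68 for Idh2 on silencing at day 14, -0.27 to 0.046 for Suclg2 on silencing and -0.22 to 0.10 for Suclg2 in the direct comparison.

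Fibres that carry the same number in a treated and a control group did not deviate together (r from -0.175 to 0.186, above 0.1 in 4 of 14 pairs), so the numbers were not taken to pair them. With the number as a replicate block, 0 members passed between the controls over both days, in place of 1, and Suclg2 in the direct comparison became 0.060; Idh3g with the MCU vector was -0.44 (adjusted p = 0.294).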
